A study of Homo sapiens with 18 samples.

Results

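In the Ewing sarcoma line A673, 461 of the 1587 genomic regions bound by RING1B in both ChIP-seq replicates carried neither an EWSR1-FLI1 peak nor a reproducible H2Aub1 region. That is 29.0% of the RING1B regions (95% Wilson interval 26.9 to 31.3%). They are called RING1B-alone regions here. The other RING1B regions comprised 811 with EWSR1-FLI1 only, 234 with H2Aub1 only and 81 with both. RING1B peaks of replicates 1 and 2 that shared at least 1 bp were merged, a merged region was kept when it held a peak of each replicate, and H2Aub1 regions were made in the same way. The RING1B-alone regions were thus selected on the positions of peaks in all 5 lists, and the absence of both features is not a result. The number rested on RING1B being found in both replicates, since 2330 of the replicate 2 peaks and 1068 of the replicate 1 peaks met the rule when the other RING1B replicate was left out.

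A673 is an established tumour cell line that carries EWSR1-FLI1, and the labels name no treatment for the cells analysed here. They give 2 samples for RING1B, 2 for H2Aub1 (H2A monoubiquitinated on a lysine of its tail) and 1 for EWSR1-FLI1, without saying whether the replicates are separate cultures, so their spread may be technical. The RING1B lists held 2573 and 3945 peaks, the H2Aub1 lists 26423 and 10268, and the EWSR1-FLI1 list 2145. The lists hold no read counts, so depth is unknown, and a site below a caller's threshold cannot be told from an unbound one. The series' other samples, among them a RING1B knockdown (shRING1B) with its control (shCTRL), were not analysed here, so the regions are described in 1 condition, and regions of 1 sample are not replicates. Classes of regions are therefore compared by counts and intervals, with no p-value; the intervals take in counting error alone.

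RING1B (also called RNF2) is the E3 ubiquitin ligase subunit of Polycomb repressive complex 1. The complex monoubiquitinates histone H2A, a mark found over silenced developmental genes and also, more thinly, elsewhere in the genome. RING1B can also sit on chromatin with little of the mark, and variant forms of the complex differ in their ligase activity. EWSR1-FLI1 fuses a part of EWSR1 to the ETS DNA-binding domain of FLI1, binds GGAA motifs and turns GGAA repeats into enhancers in Ewing sarcoma. The RING1B-alone regions hold RING1B with no EWSR1-FLI1 peak and no reproducible H2Aub1 region called at the same place. An H2Aub1 peak of at least 1 replicate still overlapped 16.3% of them, so the name does not mean that the mark was absent.

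RING1B-alone regions had lower median RING1B scores than each other class of reproducible RING1B regions, with a small strong tail. Each peak carries the authors' score, which starts at 50 in both RING1B lists and is on a scale that neither the labels nor the files explain. The lowest, median and highest scores of the RING1B-alone regions were 50.06, 80.7 and 3100 in replicate 1, and 50, 89.96 and 3199 in replicate 2. Regions with EWSR1-FLI1 only had medians of 154 and 143 in replicates 1 and 2, and regions with H2Aub1 only had 210 and 174. The ranges of the classes overlapped, and the RING1B-alone regions held the highest RING1B score of replicate 2. Within the full peak lists, the median RING1B-alone region stood at percentile 43.4 in replicate 1 and 59.7 in replicate 2. For all reproducible RING1B regions these percentiles were 65.5 and 75.5. The lower scores are thus relative to other reproducible regions, and not to all called peaks of replicate 2. A score below 100 was found in replicate 1 for 299 of the 461 RING1B-alone regions (64.9%, 60.4 to 69.1%), against 236 of 811 regions with EWSR1-FLI1 only (29.1%, 26.1 to 32.3%) and 40.1% of all RING1B regions. In replicate 2 the counts were 262 of 461 (56.8%, 52.3 to 61.3%) and 263 of 811 (32.4%, 29.3 to 35.7%), against 38.8% of all. Both scores were below 100 in 197 RING1B-alone regions (42.7%, 38.3 to 47.3%), against 134 with EWSR1-FLI1 only (16.5%, 14.1 to 19.2%) and 24.7% of all RING1B regions.

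The share of RING1B regions with neither feature was lower where RING1B ranked higher. All 1587 regions were ordered by the mean of their percentile ranks in the 2 replicates and cut into 10 equal groups. RING1B-alone regions made up 87 of 159 regions in the lowest group (54.7%, 47.0 to 62.3%), 53 of 159 in group 5 (33.3%, 26.5 to 41.0%) and 12 of 158 in the highest (7.59%, 4.40 to 12.8%). The only step against this order lay between groups 8 and 9, with 10.1% and 11.3%, well within their intervals. Ordered by the replicate 1 score alone, the lowest and highest groups held 55.3% and 8.23%, and by the replicate 2 score alone 45.9% and 8.23%. Above the median rank lay 120 of the 461 RING1B-alone regions (26.03%, 22.2 to 30.2%), against 477 of 811 with EWSR1-FLI1 only (58.8%, 55.4 to 62.2%), 156 of 234 with H2Aub1 only (66.7%, 60.4 to 72.4%) and 49.9% of all. The highest of the 10 groups took 12 RING1B-alone regions (2.60%, 1.495 to 4.49%), against 97 with EWSR1-FLI1 only (12.0%, 9.90 to 14.4%), 49 with H2Aub1 only (20.9%, 16.2 to 26.6%) and 9.96% of all. Of the 81 regions with both features none was in it, which allows a share of up to 3.70%.

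**Figure D1:**
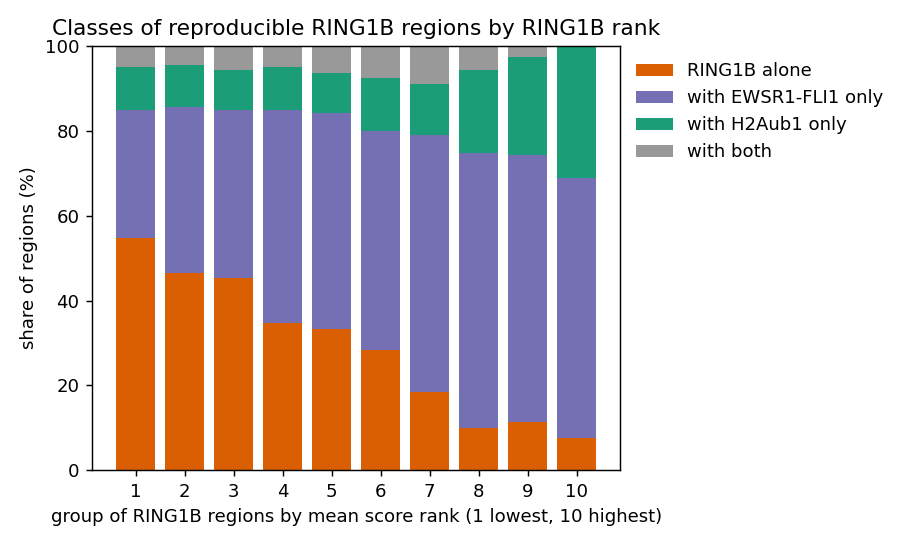
Share of each class (vertical axis, percent) among reproducible RING1B regions in 10 groups of rising mean RING1B score rank (horizontal axis). RING1B-alone regions made up 54.7% of the lowest group and 7.59% of the highest.

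RING1B-alone regions of higher rank were wider, but the 3 widest lay near the middle of the ranks (mean percentiles 48.5, 49.1 and 45.4). The median RING1B-alone region spanned 1221 bp (quartiles 1066 and 1638 bp), against 1272 bp with EWSR1-FLI1 only and 1915 bp with H2Aub1 only. More than 3 kb was spanned by 28 of 461 RING1B-alone regions (6.07%, 4.24 to 8.64%), against 8 of 811 with EWSR1-FLI1 only (0.986%, 0.501 to 1.93%), 63 of 234 with H2Aub1 only (26.9%, 21.6 to 32.9%) and 6.24% of all RING1B regions. The difference to regions with EWSR1-FLI1 only was 5.09 percentage points (95% Newcombe interval 3.02 to 7.70). RING1B-alone regions were also cut by RING1B rank into 4 groups of nearly equal size. The lowest group had a median width of 1043.5 bp and 1 region over 3 kb, and the highest had 1809 bp and 22 of 115 regions over 3 kb (19.1%). Of the 28 wide regions, 6 lay in a single stretch of chromosome 11 described further on.

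The rule kept only regions with overlapping RING1B peaks of both replicates, so close peak centres are in part fixed by it and are given as a description. The centres of the strongest peaks of each replicate lay a median of 83 bp apart in RING1B-alone regions, against 67 bp with EWSR1-FLI1 only and 145 bp with H2Aub1 only. The median share of the combined span covered by both peaks was 79.4%, against 84.0% with EWSR1-FLI1 only and 76.4% with H2Aub1 only. Scores of both replicates were related over the 461 RING1B-alone regions with a Pearson r of 0.850 and a Spearman rho of 0.354. Spearman's rho was 0.671 over the 811 regions with EWSR1-FLI1 only and 0.812 over the 234 with H2Aub1 only. All these regions share the same 2 libraries, and the scores of most RING1B-alone regions lie in a narrow range. Leaving out the 2 regions farthest from the median gave an r of 0.755, so the r rested in part on the strongest sites, as the plot of both scores shows.

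**Figure D2:**
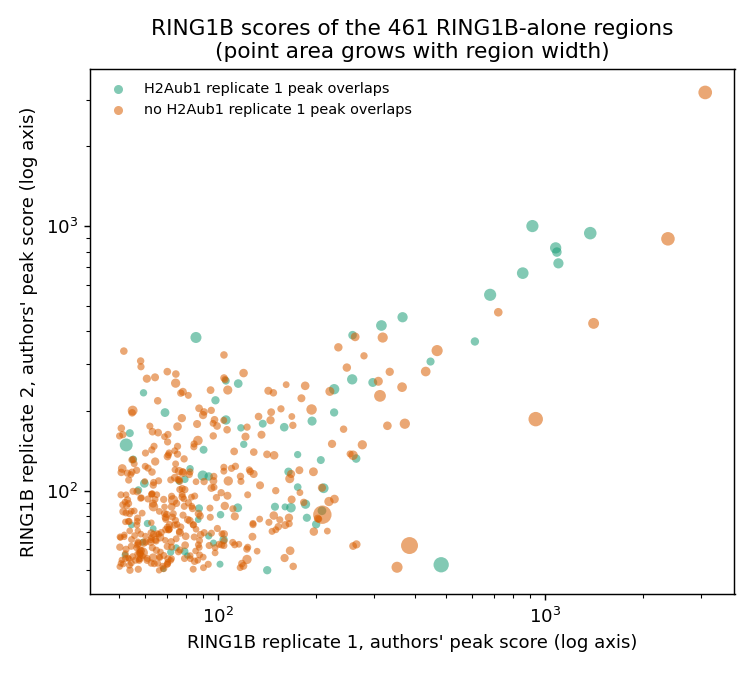
RING1B peak scores of the authors in replicate 1 (horizontal axis, log) and replicate 2 (vertical axis, log), 1 point for each of the 461 RING1B-alone regions, with point area growing with width and green points for the 72 regions overlapping an H2Aub1 replicate 1 peak. Both scores were below 100 for 197 of the 461 points (42.7%), and the strongest regions are wide.

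The 10 RING1B-alone regions with the highest mean rank (hg19) were broad and lay beside H2Aub1. Of these, 9 spanned more than 3 kb, 7 overlapped an H2Aub1 peak found only in replicate 1, and all 10 had an H2Aub1 peak of at least 1 replicate within 10 kb. Over all 461 RING1B-alone regions, an H2Aub1 replicate 1 peak overlapped 72 (15.6%). None of the 10 had an EWSR1-FLI1 peak within 50 kb. Such a peak was uncommon near RING1B-alone regions in general, with 79 of 461 (17.1%). In the highest of 4 groups by RING1B rank it was 13 of 115 (11.3%). With 10 regions, its absence thus does not set the strongest ones apart. The strongest lay on chromosome 7 in band 7p15.3 (23513485 to 23519640), with RING1B scores of 3100 and 3199. The score of 3100 is the highest of the replicate 1 list and is shared by 4 of its peaks, and 3199 is the highest of the replicate 2 list. H2Aub1 peaks of replicates 1 and 2 began 3644 bp and 4274 bp away. It was followed by a region in 8q12.1 (57115418 to 57121461, RING1B scores 2384 and 895), which had an H2Aub1 replicate 2 peak 2912 bp away. The third, in 7q32.3 (130418973 to 130424042, RING1B scores 1379 and 940.3), shared 3228 bp with an H2Aub1 replicate 1 peak and missed a reproducible H2Aub1 region by 10 bp.

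The remaining regions of the top 10 had RING1B scores of 681 to 1412 in replicate 1 and of 429 to 1000.2 in replicate 2. Regions in 6q23.2 (133563309 to 133567293), 2p15 (63286792 to 63289919) and 3q26.2 (169069697 to 169074422) overlapped H2Aub1 replicate 1 by 226, 659 and 3948 bp. Their nearest H2Aub1 replicate 2 peaks were 355, 1803 and 206 kb away, so the mark was called there by the longer list only. Regions in 14q12 (29246646 to 29249250), 13q31.1 (79170488 to 79175246) and 14q13.3 (36962445 to 36966725) overlapped H2Aub1 replicate 1 by 1016, 1280 and 1216 bp. There H2Aub1 replicate 2 was also called close by, at 9002, 2089 and 6163 bp. The region in 15q26.3 (99187670 to 99191324) overlapped no H2Aub1 peak but had peaks of both replicates 272 and 1400 bp away.

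H2Aub1 peaks found in a single replicate touched a minority of the RING1B-alone regions, nearly always in replicate 1, which has the longer list. An H2Aub1 replicate 1 peak overlapped 72 of 461 RING1B-alone regions (15.6%, 12.6 to 19.2%), against 46 of 811 regions with EWSR1-FLI1 only (5.67%, 4.28 to 7.48%). In the 1272 regions of both classes together, which lack reproducible H2Aub1 by the rule, 9.28% had such a peak. The difference between the classes was 9.95 percentage points (6.42 to 13.8). An H2Aub1 replicate 2 peak overlapped 6 RING1B-alone regions (1.30%, 0.598 to 2.81%) and 5 regions with EWSR1-FLI1 only (0.617%, 0.264 to 1.44%), against 0.865% of both classes. With replicate 2 the difference was 0.685 points (-0.394 to 2.23), an interval that includes 0. Peaks of each H2Aub1 replicate overlapped 3 RING1B-alone regions without touching each other, on chromosomes 2 (15050479 to 15051508), 5 (54469921 to 54472589) and 13 (79166901 to 79169747).

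H2Aub1 replicate 1 peaks overlapped RING1B-alone regions more often at higher RING1B rank and at greater width. Regions of higher rank were wider, and an effect of rank apart from width was not tested within RING1B-alone regions. The 72 overlapped regions had median RING1B scores of 116.59 and 119.525 in replicates 1 and 2. These lay above the medians of all RING1B-alone regions (80.68 and 89.96) but below those of all RING1B regions (122.98 and 125.67). In the 4 groups of rising RING1B rank, 10 of 116, 10 of 115, 18 of 115 and 34 of 115 RING1B-alone regions overlapped an H2Aub1 replicate 1 peak. The top group thus had 29.6% (21.99 to 38.5%), and the lowest had 8.62% (4.75 to 15.1%). In 4 such groups of the regions with EWSR1-FLI1 only, the counts were 13 of 203, 15 of 203, 15 of 203 and 3 of 202, with 1.49% (0.506 to 4.27%) at the top. The groups were cut within each class, and the top one had median RING1B scores of 178 and 198 in RING1B-alone regions and of 482 and 392 with EWSR1-FLI1 only. Both classes had wider regions at higher rank, so the pattern was also read at matched width. Between 1500 and 2500 bp, 28 of 98 RING1B-alone regions (28.6%, 20.6 to 38.2%) and 13 of 220 with EWSR1-FLI1 only (5.91%, 3.49 to 9.85%) overlapped H2Aub1 replicate 1. Above 2500 bp the counts were 18 of 39 (46.2%, 31.6 to 61.4%) and 0 of 24, which allows a share of up to 12.5%. Most RING1B-alone regions were narrower, and there the intervals of both classes overlapped. Between 1000 and 1500 bp the counts were 20 of 250 (8%, 5.24 to 12.0%) and 27 of 474 (5.70%, 3.94 to 8.16%), and at 1000 bp or less they were 6 of 74 (8.11%, 3.77 to 16.6%) and 6 of 93 (6.45%, 2.99 to 13.4%).

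**Figure D3:**
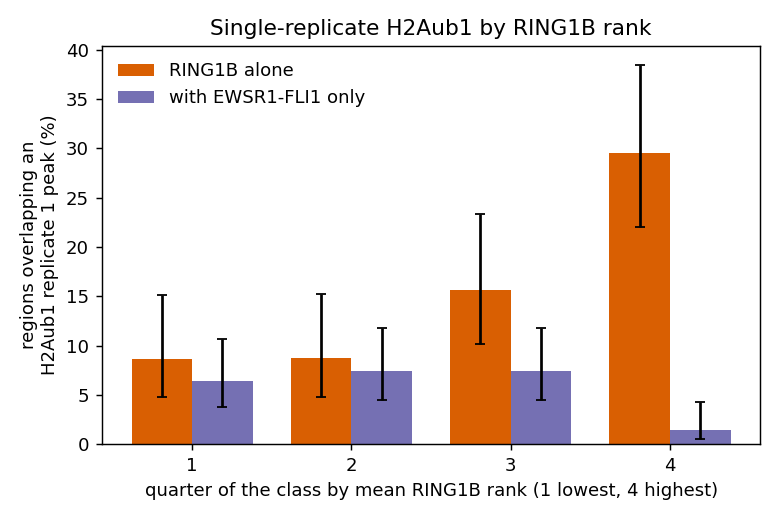
Share of regions overlapping an H2Aub1 replicate 1 peak (vertical axis, percent) in 4 groups of rising RING1B rank within each class (horizontal axis), for RING1B-alone regions and for regions with EWSR1-FLI1 only, with 95% Wilson intervals. In the top group the share was 29.6% for RING1B-alone regions and 1.49% for regions with EWSR1-FLI1 only.

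The H2Aub1 replicate 1 peaks at RING1B-alone regions lack a replicate 2 match by the rule, and nearly all those at regions with H2Aub1 only have one, so values of these classes are set side by side as a description. The median H2Aub1 replicate 1 score was 114 at the 72 RING1B-alone regions (quartiles 70.9 and 250.01), against 89.1 at the 46 regions with EWSR1-FLI1 only and 574 at the 233 regions with H2Aub1 only. The H2Aub1 peak covered a median of 46.9% of the RING1B-alone region, against 27.1% with EWSR1-FLI1 only and 94.3% with H2Aub1 only. The 72 RING1B-alone regions had a median width of 1807 bp, and the 389 without an H2Aub1 replicate 1 peak had 1181 bp.

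H2Aub1 also lay nearer to RING1B-alone regions than to regions with EWSR1-FLI1 only. A single-replicate H2Aub1 peak overlapped or lay within 10 kb of 144 of 461 RING1B-alone regions (31.2%, 27.2 to 35.6%), against 132 of 811 with EWSR1-FLI1 only (16.3%, 13.9 to 19.0%) and 21.7% of both classes. The share was not above that of all other RING1B regions (32.2%, 29.6 to 35.0%) or of all RING1B regions (31.9%). Those include regions chosen to hold the mark, with 69.7% for H2Aub1 only and 84.0% for both features. Nearness to H2Aub1 is thus read only against regions with EWSR1-FLI1 only. A reproducible H2Aub1 region lay within 50 kb of 91 RING1B-alone regions (19.7%, 16.4 to 23.6%), against 93 with EWSR1-FLI1 only (11.5%, 9.45 to 13.8%) and 14.5% of both classes. The difference was 8.27 percentage points (4.14 to 12.6). Of the bases within 10 kb on each side, H2Aub1 replicate 1 peaks covered a mean of 5.05% around RING1B-alone regions, against 2.31% with EWSR1-FLI1 only and 45.1% with H2Aub1 only. For replicate 2 the means were 1.28% around RING1B-alone regions, 0.707% with EWSR1-FLI1 only and 28.2% with H2Aub1 only. The rule sets the contrast with regions with H2Aub1 only, which were chosen to hold the mark, and nothing is read from it. Against regions with EWSR1-FLI1 only, the mean coverage around RING1B-alone regions was higher in both replicates. The median was 0 in both classes and both replicates, so the higher means came from a minority of regions.

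**Figure D4:**
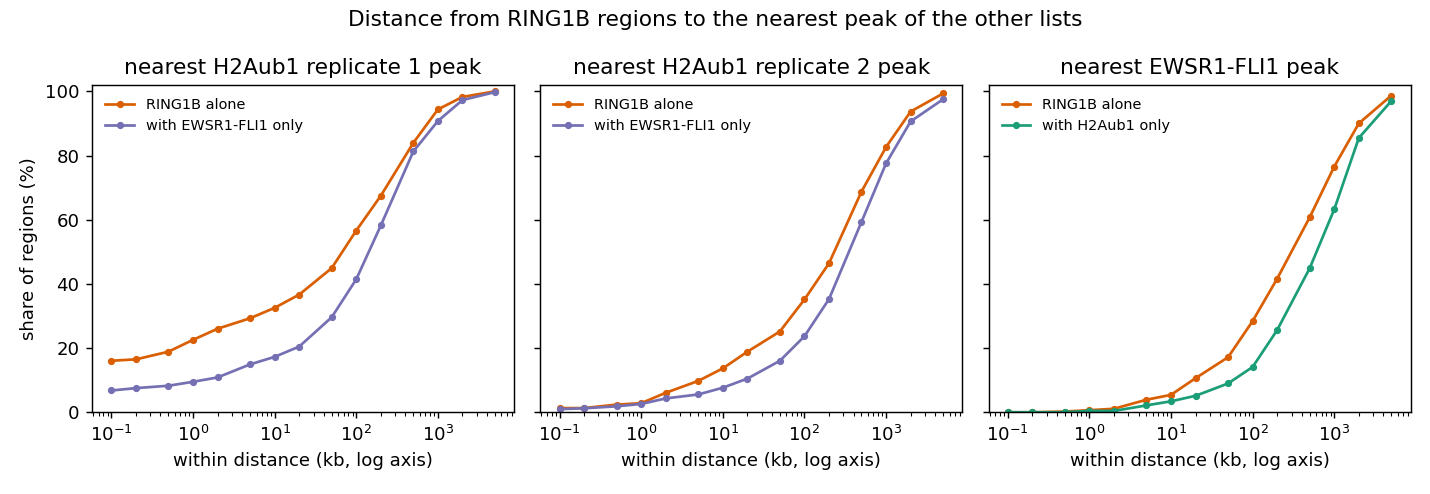
Cumulative share of regions (vertical axis, percent) with a peak of another list within a given distance (horizontal axis, kb, log), for RING1B-alone regions and, in the H2Aub1 panels, regions with EWSR1-FLI1 only or, in the EWSR1-FLI1 panel, regions with H2Aub1 only. Within 50 kb, 44.9% of RING1B-alone regions had an H2Aub1 replicate 1 peak, against 29.6% with EWSR1-FLI1 only.

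Few RING1B-alone regions came near the line that the rule drew at EWSR1-FLI1. An EWSR1-FLI1 peak lay within 50 kb of a minority of them, but more often than for regions with H2Aub1 only. The nearest EWSR1-FLI1 peak was a median of 308 kb away (quartiles 81.8 and 947 kb), against 574 kb for regions with H2Aub1 only. It lay within 1 kb of 3 RING1B-alone regions, within 10 kb of 25 and within 50 kb of 79 (17.1%, 14.0 to 20.8%). Within 50 kb the regions with H2Aub1 only had 21 of 234 (8.97%, 5.94 to 13.3%), and the share over both classes without EWSR1-FLI1 was 14.4%. The difference was 8.16 percentage points (2.78 to 13.0). The RING1B-alone regions just outside EWSR1-FLI1 lay on chromosomes 4 (40197746 to 40199199), 20 (52444361 to 52445908) and 14 (37557479 to 37558659), with gaps of 379, 582 and 662 bp. On the other side of the line, the smallest overlaps of RING1B regions with EWSR1-FLI1 were 504 bp on chromosome 12 (31913436 to 31914473), 567 bp on chromosome 10 (24417094 to 24418119) and 568 bp on chromosome 6 (33738745 to 33739878).

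For H2Aub1 the line was finer. The RING1B-alone regions next to a reproducible H2Aub1 region lay 10 bp away (the region in 7q32.3), 202 bp away on chromosome 19 (49621807 to 49622624) and 276 bp away on chromosome 9 (91408713 to 91409716). The smallest overlaps among RING1B regions counted as marked were 37 bp on chromosomes 7 (77523231 to 77524650) and 17 (79392829 to 79393882) and 43 bp on chromosome 8 (8726323 to 8727622). Away from every line, 293 of the 461 RING1B-alone regions (63.6%, 59.1 to 67.8%) had no EWSR1-FLI1 peak and no H2Aub1 peak of either replicate within 10 kb. Within 50 kb there were 201 such regions (43.6%, 39.1 to 48.2%), and 187 of these also had no other reproducible RING1B region that near.

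Most RING1B-alone regions stood by themselves along the chromosome. Another reproducible RING1B region lay within 50 kb of 108 of 461 (23.4%, 19.8 to 27.5%), against 190 of 811 with EWSR1-FLI1 only (23.4%, 20.6 to 26.5%), 114 of 234 with H2Aub1 only (48.7%, 42.4 to 55.1%) and 27.0% of all RING1B regions. The interval of the difference to EWSR1-FLI1 only was -4.74 to 4.94 percentage points, and the difference to H2Aub1 only was -25.3 points (-32.6 to -17.8). By class of neighbour, another RING1B-alone region lay within 50 kb of 55 RING1B-alone regions (11.9%, 9.28 to 15.2%), against 6.48% of the other 1126 RING1B regions (5.19 to 8.07%) and 8.07% of all. A region with EWSR1-FLI1 only lay that near to 46 RING1B-alone regions (9.98%, 7.56 to 13.1%), against 13.7% of the other regions (11.8 to 15.8%) and 12.6% of all. A region with H2Aub1 only lay that near to 21 RING1B-alone regions (4.56%, 3.00 to 6.86%), against 9.24% of the other regions (7.68 to 11.1%) and 7.88% of all. The differences to the other regions were 5.45 percentage points (2.36 to 8.97) for RING1B-alone neighbours, -3.70 points (-6.92 to -0.092) for those with EWSR1-FLI1 only and -4.68 points (-7.09 to -1.90) for those with H2Aub1 only. The other regions mix classes with unlike shares. Neighbours with H2Aub1 only were found for 39.3% of regions with H2Aub1 only, 4.94% with both and 0.986% with EWSR1-FLI1 only. Against EWSR1-FLI1 only, the difference of RING1B-alone regions was thus 3.57 points (1.75 to 5.93), of opposite sign. Neighbours with EWSR1-FLI1 only were found for 17.1% of regions with EWSR1-FLI1 only, 8.64% with both and 3.42% with H2Aub1 only. Joined at gaps of up to 50 kb, RING1B-alone regions formed 406 single sites, 24 pairs, 1 run of 3 and 1 run of 4.

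The run of 4 spanned 16.6 kb of chromosome 14 (29232626 to 29249250) and ended in one of the 10 strongest RING1B-alone regions. Its members had RING1B scores of 104, 259, 227 and 1090.1 in replicate 1 and of 119, 61.8, 93.0 and 798 in replicate 2. The region with the highest coordinates was thus the strongest of the run in both replicates, while the order of the other 3 differed between replicates. H2Aub1 replicate 2 peaks lay 3171, 1031, 400 and 9002 bp from these members. An H2Aub1 replicate 1 peak overlapped only the last, and the others had one 1430, 3103 and 2157 bp away. The run of 3 spanned 35.2 kb of chromosome 13 (91965277 to 92000437), with scores of 317, 70.4 and 373 in replicate 1 and of 421, 55.3 and 179 in replicate 2. Its outer members were the strong and wide ones (3491 and 3170 bp), and the middle one spanned 1278 bp.

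RING1B-alone regions were found on all chromosomes with RING1B regions, in shares that mostly overlapped. The share per chromosome ran between 14.3% on X (3 of 21, 4.98 to 34.6%) and 45.0% on chromosome 19 (9 of 20, 25.8 to 65.8%). Chromosome 11 stood apart, with 46 of its 106 RING1B regions (43.4%, 34.4 to 52.9%), and chromosome 10 had 15 of 87 (17.2%, 10.7 to 26.5%), against 29.0% of all. Their intervals leave out 29.0%, among 23 chromosomes looked at with no adjustment. The outer 10 Mb of chromosomes held 60 RING1B-alone regions (13.0%, 10.2 to 16.4%), against 83 with EWSR1-FLI1 only (10.2%, 8.33 to 12.5%) and 12.2% of all RING1B regions. Light Giemsa bands, the gene-rich part of chromosomes, held 222 RING1B-alone regions (48.2%, 43.6 to 52.7%), against 318 with EWSR1-FLI1 only (39.2%, 35.9 to 42.6%), 129 with H2Aub1 only (55.1%, 48.7 to 61.4%) and 44.8% of all. The difference to EWSR1-FLI1 only was 8.95 percentage points (3.28 to 14.6), and light bands make up 42.4% of the hg19 length without Y.

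**Figure D5:**
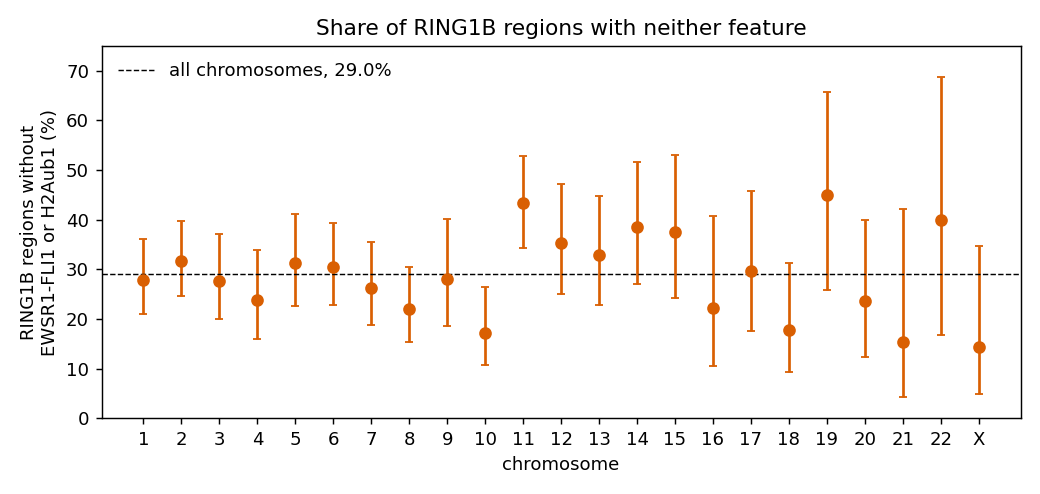
Share of reproducible RING1B regions with neither EWSR1-FLI1 nor reproducible H2Aub1 (vertical axis, percent) for each chromosome (horizontal axis), with 95% Wilson intervals and the share over all chromosomes as a dashed line. Chromosome 11 had 43.4% and chromosome 10 had 17.2%, against 29.0% overall.

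A stretch of chromosome 11 between 26 and 44 Mb held the widest RING1B-alone regions and the one whose ranks differed most between replicates. The bounds of the stretch were chosen after seeing its wide RING1B-alone regions. Their greater width than elsewhere follows from that choice and is given as a description. The 9 RING1B-alone regions of the stretch had a median width of 3150 bp (1964 to 11712 bp), against 1353 bp on the rest of chromosome 11 and 1192 bp on other chromosomes. Regions with EWSR1-FLI1 only were also wide there, with a median of 2394 bp, so the width was not confined to 1 class. The 3 widest RING1B-alone regions all lay in it, at 26586188 to 26597899 (11712 bp), 31322010 to 31331860 (9851 bp) and 43659174 to 43667084 (7911 bp). Their RING1B scores were 209, 386 and 482 in replicate 1, against 81.2, 62.0 and 52.5 in replicate 2. Their percentile ranks among the 1587 regions were 68.9, 85.3 and 89.0 in replicate 1 and 28.1, 13.0 and 1.76 in replicate 2. Without this stretch, H2Aub1 replicate 1 overlapped 15 of 31 RING1B-alone regions above 2500 bp (48.4%, 32.0 to 65.2%) and 0 of 21 with EWSR1-FLI1 only, which allows up to 14.3%.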

How the data were processed

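The authors deposited 1 list of peaks for each sample used here, with a score for each peak; peak names carry the name of the caller MACS, per the files. The submitters' processing notes name Bowtie and the builds hg19 and mm9; the role of mm9, the versions, the use of inputs and the filters are not given there. The score ranks peaks within its list only. Of the 18 samples in the series, 5 lists were used, and the other 13 samples were not analysed here. Lists hold no read counts, so depth is unknown.

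Peaks of both replicates were merged at 1 bp or more of overlap, and distances were taken between region edges with Python 3.11.15, pandas 2.3.3 and numpy 2.4.6, with figures by matplotlib 3.10.9. Chromosome lengths and Giemsa bands of hg19 came from GenomeInfoDb 1.38.1 and circlize 0.4.16 under R 4.3.3. The code was tested on simulated peaks. Shares carry 95% Wilson intervals and differences 95% Newcombe intervals, as a description; there is no test, since regions are not replicates. The members, comparisons and lists were chosen with earlier results of these data known. Named regions are the 10 highest by mean RING1B rank and the 3 at the end of each other scale (width, gap, isolation, 5 Mb windows, rank difference). Genes, promoters, CpG content and GGAA repeats were planned only with an hg19 annotation or genome, which was not used here, so regions are given by hg19 coordinates and bands and no sequence is printed. Alternatives covered the overlap, the distance counted as shared, the score, the H2Aub1 replicates and each replicate left out.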

Additional observations from a re-analysis of the deposited data

How the results depend on the processing

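Over 9 results and 85 alternative values, 59 stayed within a set margin and 26 moved past it. The results are counts, shares and medians without a direction, so no reversal was looked for. The margin was the 95% interval of a share, 1 SD between replicates for scores and widths, and 1.5 times the number of regions. The SD for scores (6.56) was taken between the medians of 2 lists whose scales may differ. It is thus a working margin and no measure of the spread between replicates. Counting a feature as shared only at 50% of the shorter region gave 31.6% of RING1B regions with neither feature, in place of 29.0%, and 35.7% of RING1B-alone regions with a single-replicate H2Aub1 peak within 10 kb, in place of 31.2%. Counting features within 5 kb as shared gave 25.9%, with 19.7% having another RING1B region within 50 kb in place of 23.4%. Using H2Aub1 peaks of either replicate gave 24.3%. With the highest-scoring 50% of each list, 222 regions had neither feature (25.4%), with median RING1B scores of 148 and 149, a median width of 1501 bp, 9.46% with EWSR1-FLI1 within 50 kb and 8.56% within 10 Mb of a chromosome end.

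Leaving out each replicate in turn gave 390 to 2330 RING1B-alone regions, a share of 24.6 to 59.1%, median RING1B scores of 70.3 to 82.2 in replicate 1 and 69.1 to 92.6 in replicate 2, and median widths of 960 to 1221 bp. Another RING1B region lay within 50 kb of 21.8 to 32.8%, EWSR1-FLI1 within 50 kb of 13.7 to 19.0%, and a chromosome end within 10 Mb of 12.9 to 16.8%. Single-replicate H2Aub1 lay within 10 kb of 25.6 to 29.4% when a RING1B replicate was left out; leaving out an H2Aub1 replicate gives no such value, since both are needed to call a peak single-replicate. The highest share, 59.1%, was without RING1B replicate 1, the cause of which was not tested. Leaving out the stretch of chromosome 11, an alternative chosen after seeing the data, kept all 9 results within the margin. No paired analysis was possible because the results come from no test: they compare positions within and between lists.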

Other observations

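RING1B-alone regions were thinly spread, but a few 5 Mb windows held several. Windows with no RING1B-alone region numbered 183 of those with any RING1B region, and 176 held 1. The windows with the most were 175000001 to 180000000 on chromosome 2 (6 of 15 RING1B regions, beside 3 with EWSR1-FLI1 only and 6 with H2Aub1 only), 75000001 to 80000000 on chromosome 13 (6 of 9, beside 3 with EWSR1-FLI1 only) and 225000001 to 230000000 on chromosome 2 (5 of 11, beside 6 with EWSR1-FLI1 only).

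The most isolated RING1B-alone region lay in the centromere band 21p11.1 (11118011 to 11121996), with RING1B scores of 58.7 and 58.3. No EWSR1-FLI1 peak, H2Aub1 peak of either replicate or other reproducible RING1B region lay within 4462 kb of it. RING1B peaks found in a single replicate were not counted. Next came regions on chromosomes 4 (74569661 to 74570863) and 8 (89288117 to 89289303), at 1825 and 1695 kb from any of these features. Replicate ranks differed most at 3 regions: that on chromosome 11 (43659174 to 43667084), one on chromosome 3 (157029025 to 157030416, RING1B scores 51.6 in replicate 1 and 337 in replicate 2) and one on chromosome 2 (146990607 to 146994391, RING1B scores 354 in replicate 1 and 51.4 in replicate 2). At the last, both peaks shared 23.8% of their combined span, against a median of 79.4% over all RING1B-alone regions.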
